A study of Mus musculus with 37 samples.

Results

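Pyroptosis is an inflammatory form of cell death in which a gasdermin protein opens pores in the plasma membrane. An inflammasome sensor such as Nlrp3 gathers the adaptor Pycard (also called ASC) and procaspase-1, and the activated caspase cleaves gasdermin D together with the precursors of the cytokines interleukin-1 beta and interleukin-18. In brain tissue, inflammasomes are best known from microglia, and the proteins are activated by cleavage, which mRNA counts do not measure.

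The genes described here are Gsdmd and the 8 genes that act with it in this pathway: the gasdermin Gsdme, the sensor Nlrp3, the adaptor Pycard, the caspases Casp1, Casp4 and Casp8, and the cytokines Il1b and Il18. They are 9 of the 48795 genes counted, and 8 of the 9 passed the filter on low counts that left 16799 genes for testing, Il1b being the exception. Gsdmd was chosen because it was higher in the knockout, so its own change is given as a description with no test, and the question put to the other 8 genes was whether they rose with it.

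Hippocampal RNA of male C57BL/6J mice was sequenced in 1 library per mouse, from 3 Kdm1a-ifKOs and 3 controls. Kdm1a-ifKOs carried Camk2a-creERT2 and Kdm1a f/f alleles with loxP sites around exons 5 and 6, and received tamoxifen by gavage in 5 administrations from 8 weeks of age. Controls were littermates without the recombinase that also received tamoxifen, and the age at which the RNA was taken is not given in the sources used here. The recombinase acts in principal neurons of the forebrain, whereas the RNA came from whole hippocampus with its glia and vessels. In such bulk tissue, fewer cells of a type and less RNA per cell cannot be told apart. CTCF ChIA-PET, which counts the paired-end tags (PETs) that join a pair of CTCF-bound anchors, was available for 1 library of sorted Camk2a+ hippocampal neurons. By the paper, these nuclei came from adult Camk2a-creERT2 x CAG-Sun1/sfGFP reporter mice, taken 1 month after tamoxifen. The paper calls these mice wild type, and they were not the littermate controls of the RNA libraries.

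The libraries held between 18985542 and 19469947 counts. Kdm1a was counted 1521, 1545 and 1481 times in control replicates 1 to 3 and 764, 726 and 748 times in the Kdm1a-ifKO replicates, and its log2FC was -1.07, so every library matched its label. The first principal component (50.0% of the variance) separated the genotypes, and on the second (16.9%) the libraries of control replicate 3 and Kdm1a-ifKO replicate 2 stood away from the rest. Results that lean on these 2 libraries are also given without them. CPM values below are counts scaled to the library size after TMM normalization, a log2FC is Kdm1a-ifKO minus control on that scale, and a gene was called when edgeR's quasi-likelihood test gave an adjusted p under 0.05 over all tested genes.

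Gsdmd (ENSMUSG00000022575) encodes gasdermin D, the pore-forming substrate of the inflammatory caspases. It lies on chromosome 15 from 75862327 to 75867408 on the plus strand of GRCm38 and overlaps no other annotated gene. In the CTCF loops, 0 of 27786 had an anchor within 10 kb of the gene body, whereas 9540 of 16752 tested genes with a mapped position (56.9%) had at least 1. The nearest anchor was 15.6 kb away. The whole gene lay inside 9 loops, of which 5 spanned less than 1 Mb, and the median over tested genes was 4 loops. The smallest of the 9 spanned 169 kb, rested on 7 PETs and joined chr15:75714604-75715609 to chr15:75883004-75884940. Each anchor held matches to a core of the CTCF motif, read as CC, any 3 bases, AG, any 2 bases and GGC and searched on both strands. They are shown because the orientation of CTCF sites is known to shape loops, with the matching bases in capitals and 15 bases on either side, written 5′ to 3′ on the strand of the match.
Gsdmd loop, left anchor, plus strand, chr15:75715040-75715081: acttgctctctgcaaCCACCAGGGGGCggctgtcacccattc
Gsdmd loop, right anchor, minus strand, chr15:75884282-75884323: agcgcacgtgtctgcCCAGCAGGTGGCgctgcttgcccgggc
Gsdmd loop, right anchor, minus strand, chr15:75883017-75883058: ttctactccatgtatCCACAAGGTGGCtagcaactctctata

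The left anchor thus held a match on the plus strand and the right anchor 2 on the minus strand, so that the matches pointed towards each other and towards Gsdmd between them. Such an arrangement was found in 48.1% of the 5625 loops with matches of a single orientation at each anchor, and the opposite one in 10.5%. Anchors of a length within 20% of these held the motif in 43.8% of cases for the left anchor and 60.1% for the right, so a match alone is common.

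Among the 8 other genes, Nlrp3 stood closest to strong loops. A loop of 44.7 kb with 38 PETs, a count reached by 5.18% of all loops, joined chr11:59523035-59527702 to chr11:59568227-59571966 and enclosed the gene. Its matches are shown for comparison with those around Gsdmd.
Nlrp3 loop, left anchor, plus strand, chr11:59524338-59524379: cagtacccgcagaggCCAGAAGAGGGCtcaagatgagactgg
Nlrp3 loop, left anchor, plus strand, chr11:59525080-59525121: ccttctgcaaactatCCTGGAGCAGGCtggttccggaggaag
Nlrp3 loop, left anchor, plus strand, chr11:59525463-59525504: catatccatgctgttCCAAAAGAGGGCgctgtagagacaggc
Nlrp3 loop, right anchor, minus strand, chr11:59569472-59569513: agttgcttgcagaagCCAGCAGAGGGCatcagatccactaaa

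These matches also pointed towards each other, in anchors so long that 81.7% (left) and 76.1% (right) of anchors of like length held the motif. A second loop with 16 PETs had both anchors upstream of Nlrp3. Gsdme had 4 loops with an anchor within 10 kb and 14 PETs in all, and Pycard had 1 with 5 PETs, whose anchor lay on the gene itself. Casp1, Casp4, Casp8, Il1b and Il18 had none within 10 kb. The loops come from neurons of the reporter mice and a single library, so they describe the positions of the genes and not a difference between genotypes.

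In controls, the 9 genes differed widely in level. On the TPM scale (counts per kb of exon, scaled to the same sum in every library), Il18 stood highest with 65.7 ± 3.03 TPM (SD, n = 3). Casp1 followed with 7.9 ± 1.2 TPM, Gsdme with 7.35 ± 0.083 TPM and Gsdmd with 4.94 ± 0.60 TPM. Casp8 reached 3.70 ± 0.22 TPM, Pycard 2.84 ± 0.40 TPM and Nlrp3 1.15 ± 0.33 TPM (SD, n = 3 each). Il1b (0.62 ± 0.45 TPM) and Casp4 (0.39 ± 0.20 TPM) were near the limit of detection. The ranges over the 3 control libraries overlapped between Casp1 and Gsdme, between Nlrp3 and Il1b, and between Il1b and Casp4, so the order within these pairs is not set by the data. Gsdmd ranked 4 by TPM and also by CPM. Gsdme, with 12.7 kb of annotated exon, ranked 3 by TPM and 1 by CPM, and its rank therefore depended on the division by length.

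The counts of Gsdmd were 54, 64 and 50 in control replicates 1 to 3 and 127, 146 and 118 in the Kdm1a-ifKO replicates. The lowest knockout library stood well above the highest control library. In CPM this was 2.96 ± 0.36 in controls and 6.67 ± 0.69 in Kdm1a-ifKOs (SD, n = 3 each), a fold change of 2.25 with a 95% interval from 1.78 to 2.85. The log2FC was 1.17, or 1.09 to 1.27 when 1 library was dropped, and without control replicate 3 and Kdm1a-ifKO replicate 2 it was 1.03. Gsdmd was chosen by these values, so nothing is tested on them. Over all tested genes, 6.04% were called higher, 2.82% lower and 8.85% in either direction.

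Against that background, 0 of the 7 other tested genes were called in either direction. None had an unadjusted p under 0.05 in edgeR, and DESeq2 also called 0. Their median log2FC was 0.06 (-0.003 over all tested genes), with 4 values above 0 and 3 below. In 6 of the 7 genes the upper limit of the 95% interval was 0.79 or lower. For Casp4, with the fewest counts, it was 1.6. Gsdmd was chosen for its rise, so its interval is no yardstick for these limits.

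**Figure D1:**
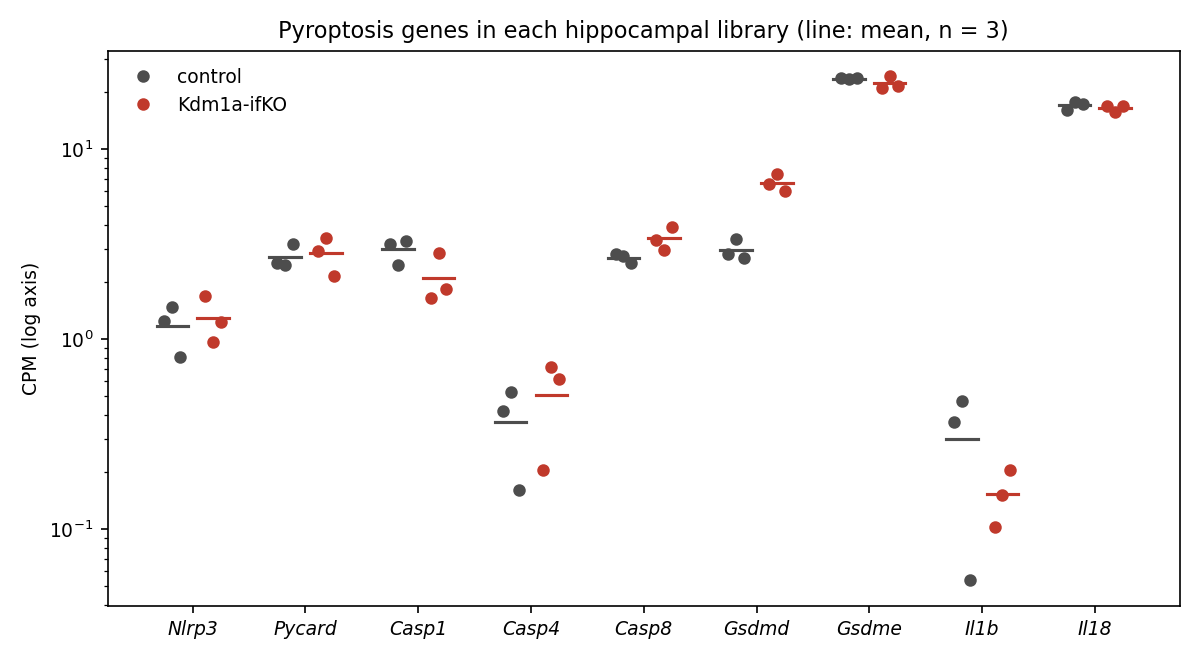
CPM of the 9 pyroptosis genes in each hippocampal library on a log axis, with 3 control (grey) and 3 Kdm1a-ifKO (red) points per gene and a line at each mean. The groups stand apart widely for Gsdmd and narrowly for Casp8, and they overlap for the 7 other genes.

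Nlrp3 (ENSMUSG00000032691, chromosome 11 from 59541568 to 59566956), the sensor that responds to potassium efflux and many danger signals, had 24, 28 and 15 counts in control replicates 1 to 3 and 33, 19 and 24 in the Kdm1a-ifKO replicates. The groups overlapped, with the highest count in Kdm1a-ifKO replicate 1 and the lowest in control replicate 3. Its log2FC was 0.14 (95% interval -0.52 to 0.79, adjusted p = 0.826), and it turned to -0.10 when Kdm1a-ifKO replicate 1 was dropped and to -0.07 when control replicate 3 was.

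Pycard (ENSMUSG00000030793, chromosome 7 from 127989708 to 127993867), the adaptor that links sensors to caspase-1, had 48, 47 and 59 counts in controls and 57, 67 and 42 in Kdm1a-ifKOs. The knockout libraries lay on both sides of the controls. The log2FC was 0.06 (95% interval -0.39 to 0.51, adjusted p = 0.896), and it turned to -0.09 when Kdm1a-ifKO replicate 2 was dropped and to -0.01 when control replicate 2 was. Pycard overlaps Gm45205 on the opposite strand, and the strand setting of the counting is not given in the sources used here, so reads of overlapping genes may be mixed.

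Casp1 (ENSMUSG00000025888, chromosome 9 from 5298517 to 5307265) encodes the caspase that cleaves gasdermin D and both cytokine precursors. It was the tested gene of the set with the lowest log2FC. Its counts were 61, 47 and 61 in controls and 32, 56 and 36 in Kdm1a-ifKOs, so Kdm1a-ifKO replicates 1 and 3 lay below every control and replicate 2 did not. The log2FC of -0.49 (95% interval -0.99 to 0.01) had an adjusted p of 0.210. Without Kdm1a-ifKO replicate 2 it was -0.77 with an adjusted p of 0.0632, and it stayed negative with any other library left out.

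Casp4 (ENSMUSG00000033538, chromosome 9 from 5308828 to 5336783), which begins directly downstream of Casp1 on the same strand, encodes the caspase that senses cytosolic lipopolysaccharide and cleaves gasdermin D without an inflammasome. It had 8, 10 and 3 counts in controls and 4, 14 and 12 in Kdm1a-ifKOs. The low library of each group fell within the range of the other. With so few counts the interval of its log2FC (0.46, from -0.67 to 1.6, adjusted p = 0.641) was wide and held 0. It therefore set little limit on a change in either direction. Without control replicate 3 and Kdm1a-ifKO replicate 2 the log2FC was -0.19.

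Casp8 (ENSMUSG00000026029, chromosome 1 from 58795374 to 58847503), the initiator caspase of death receptors that can also cleave gasdermin D, had 54, 52 and 47 counts in controls and 65, 58 and 76 in Kdm1a-ifKOs. It was the only other tested gene of the set whose groups did not overlap, which is 1 of 7, and 30.0% of all tested genes had groups that did not overlap (15.7% with Kdm1a-ifKOs higher, 14.4% lower). The log2FC was 0.33 (95% interval -0.05 to 0.72, adjusted p = 0.276) and ran from 0.22 to 0.42 when single libraries were dropped, without a call. Casp8 overlaps Gm37760 on the same strand.

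Gsdme (ENSMUSG00000029821, chromosome 6 from 50188888 to 50263862), the second gasdermin of the set, was the most counted of the 9 genes. It had 454, 444 and 440 counts in controls and 411, 479 and 421 in Kdm1a-ifKOs, with knockout libraries on both sides of the controls. At this depth the interval was narrow, and the log2FC of -0.08 (95% interval -0.24 to 0.09, adjusted p = 0.588) reached no further up than a 1.06-fold rise. Gsdme overlaps Mpp6 on the opposite strand.

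The cytokine Il18 (ENSMUSG00000039217, chromosome 9 from 50554827 to 50581840) was as evenly counted, with 308, 337 and 323 counts in controls and 329, 310 and 331 in Kdm1a-ifKOs. Its log2FC was -0.04 (95% interval -0.22 to 0.13, adjusted p = 0.794), and the upper limit corresponds to a 1.10-fold rise. Il18 overlaps Bco2 and Tex12 on the opposite strand. Il1b (ENSMUSG00000027398, chromosome 2 from 129364570 to 129371139), the other cytokine released through gasdermin pores, had 7, 9 and 1 counts in controls and 2, 3 and 4 in Kdm1a-ifKOs, too few for the test. When no filter was applied its log2FC was -0.93 (95% interval -2.26 to 0.41, adjusted p = 0.560). Il1b overlaps Il1bos on the opposite strand.

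**Figure D2:**
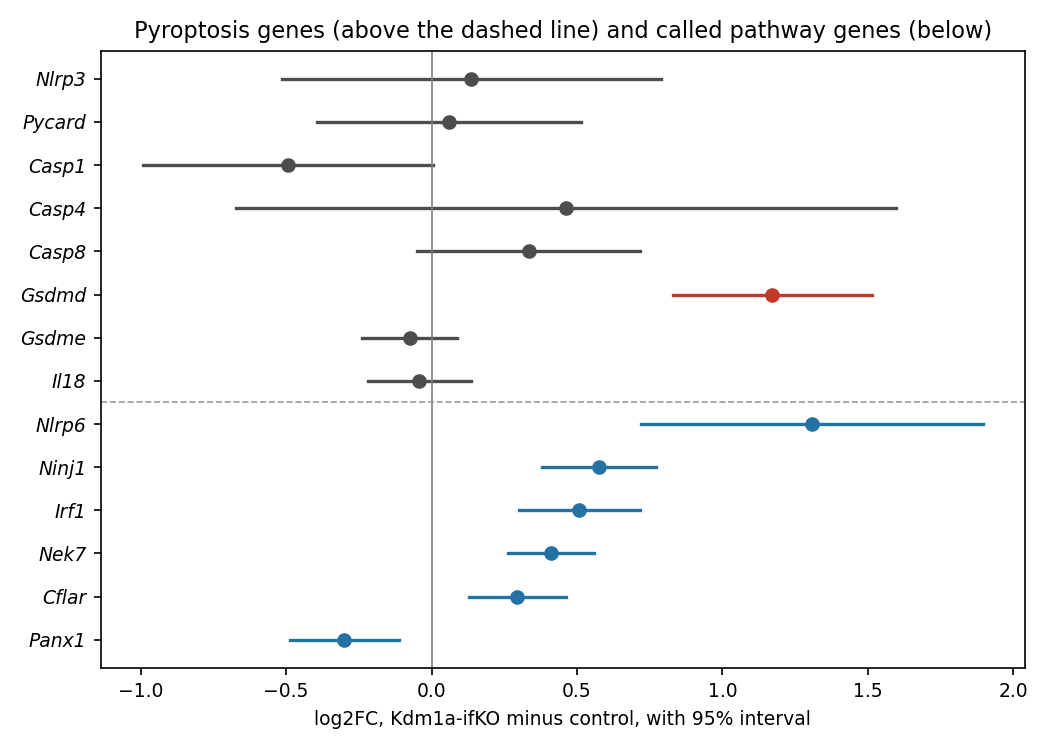
The log2FC (Kdm1a-ifKO minus control) with its 95% interval for the 8 tested genes of the set, above the dashed line, and the 6 called genes of the wider pathway, below it. The interval of Gsdmd (0.83 to 1.51) is a description, because Gsdmd was chosen for its rise, and Nlrp6 is the called pathway gene with a similar log2FC.

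Of 65 further genes of the pathway, listed by role, 42 were tested. Higher expression in Kdm1a-ifKOs was called for 5 of them (Nlrp6, Ninj1, Irf1, Nek7 and Cflar) and lower expression for 1 (Panx1), where 6.04% and 2.82% of all tested genes were called. The median log2FC of the 42 was 0.08. With each library left out in turn, 3 to 5 were called higher, 3 of them without Kdm1a-ifKO replicate 1, and 0 or 1 lower.

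Nlrp6, an inflammasome sensor best known from the intestinal epithelium, was the 1 called among 6 tested sensors. It had 19, 13 and 12 counts in control replicates 1 to 3 and 45, 35 and 33 in Kdm1a-ifKOs, and the groups did not overlap. Its log2FC was 1.31 (standard error 0.27, adjusted p = 0.0092). Without Kdm1a-ifKO replicate 1 it was 1.16 with an adjusted p of 0.0519, so the call was lost without that library. It held with any other library left out. Aim2, the sensor of cytosolic DNA, and Naip5, a receptor of bacterial flagellin, had the highest levels of the other sensors in controls (5.34 and 1.36 TPM), with log2FC of 0.05 and 0.16 and no call. Aim2 overlaps Cadm3 on the opposite strand, so its level may hold reads of that gene. Naip5 belongs to a family of close copies, between which reads may be split. Nlrp1a, Nlrp12, Nlrc4, Naip1, Mefv and Zbp1 were too low to test.

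Among 10 activators, Nek7, the kinase that binds Nlrp3 and is required for its assembly, was called higher and Panx1, a membrane channel that releases ATP, lower. Nek7 stood at 44.2, 50.9 and 52.7 CPM in controls and at 63.8, 66.8 and 65.6 CPM in Kdm1a-ifKOs. All 3 knockout libraries were above all controls, and the log2FC was 0.41 (standard error 0.068, adjusted p = 0.0021). The call held whichever library was left out. Nek7 overlaps Gm28501 on the opposite strand and Gm37080 and Gm37101 on the same strand, and Txnip overlaps Gm15441 on the opposite strand. Panx1 stood at 16.0, 14.9 and 14.6 CPM in controls and at 12.1, 12.4 and 12.5 CPM in Kdm1a-ifKOs, a log2FC of -0.30 (adjusted p = 0.0484). The call of Panx1 was lost with any 1 of the 6 libraries left out (adjusted p from 0.0602 to 0.134) and in DESeq2. Txnip and P2rx7, the activators that led the remaining list by TPM, had log2FC of -0.11 (adjusted p = 0.640) and 0.25 (adjusted p = 0.0837) without a call. Of the 10 activators, 4 had an unadjusted p under 0.05, among them Nek7, Panx1 and P2rx7. Over all tested genes that share was not counted and is at least the 8.85% that were called. Such counts, here and below, are therefore a description.

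Ninj1, which ruptures the plasma membrane after gasdermin pores have formed, was the 1 called among 6 genes of membrane rupture and repair. It had 209, 210 and 198 counts in controls and 290, 331 and 329 in Kdm1a-ifKOs. The groups did not overlap, and the log2FC was 0.58 (standard error 0.091, adjusted p = 0.0014), called with any library left out. The ESCRT genes Chmp4b and Vps4a, which help to remove damaged membrane, were far more abundant (328 and 155 TPM in controls) and had log2FC of 0.06 and -0.02, with no call.

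Irf1 and Irf2 encode interferon regulatory factors known to act on the Gsdmd promoter. Irf1 stood at 11.8, 13.7 and 11.9 CPM in controls and at 16.1, 18.7 and 18.2 CPM in Kdm1a-ifKOs, without overlap. Its log2FC was 0.51 (standard error 0.096, adjusted p = 0.0050), called with any library left out. Irf2 had a log2FC of -0.01 (95% interval -0.19 to 0.16) and was not called. Irf1 overlaps Gm17334 on the opposite strand.

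Of 5 tested inhibitors, Cflar, which restrains caspase-8, was called higher, from 22.9 ± 1.85 to 28.0 ± 1.16 CPM (SD, n = 3 each) with a log2FC of 0.30. Its adjusted p of 0.0312 rose above 0.05 without control replicate 1 or 2 or any Kdm1a-ifKO replicate (up to 0.118), and was 0.059 in DESeq2. Of the 5 inhibitors, 4 had groups that did not overlap with Kdm1a-ifKOs higher, where 15.7% of all tested genes did. An unadjusted p under 0.05 was found for 3 of the 5, Cflar, Serpinb1a (log2FC 0.28, adjusted p = 0.165) and Sigirr (0.53, adjusted p = 0.133). With so few genes these counts are a description. Xiap and Il18bp, the most abundant of those not called, had log2FC of -0.09 and 0.16. Among 9 other caspases and adaptors, 0 were called by edgeR or DESeq2 and 2 had an unadjusted p under 0.05, among them Casp9 (log2FC 0.20, adjusted p = 0.0866). Of 4 tested interleukin-1 family cytokines and receptors 0 were called by either tool and 1, Il1r1, had an unadjusted p under 0.05, with log2FC of -0.02 for Il33 and -0.08 for Il1rap. The other gasdermins (Gsdma, Gsdma2, Gsdma3, Gsdmc, Gsdmc2, Gsdmc3, Gsdmc4 and Pjvk) and the proteases Gzma, Gzmb, Elane and Ctsg that can cleave gasdermins were too low to test. Gsdmc, Gsdmc2, Gsdmc3, Elane and Ctsg had 0 counts in all 6 libraries. Il1rn, Il1r2, Il18r1, Il18rap and Il1rl1 were also not tested.

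**Figure D3:**
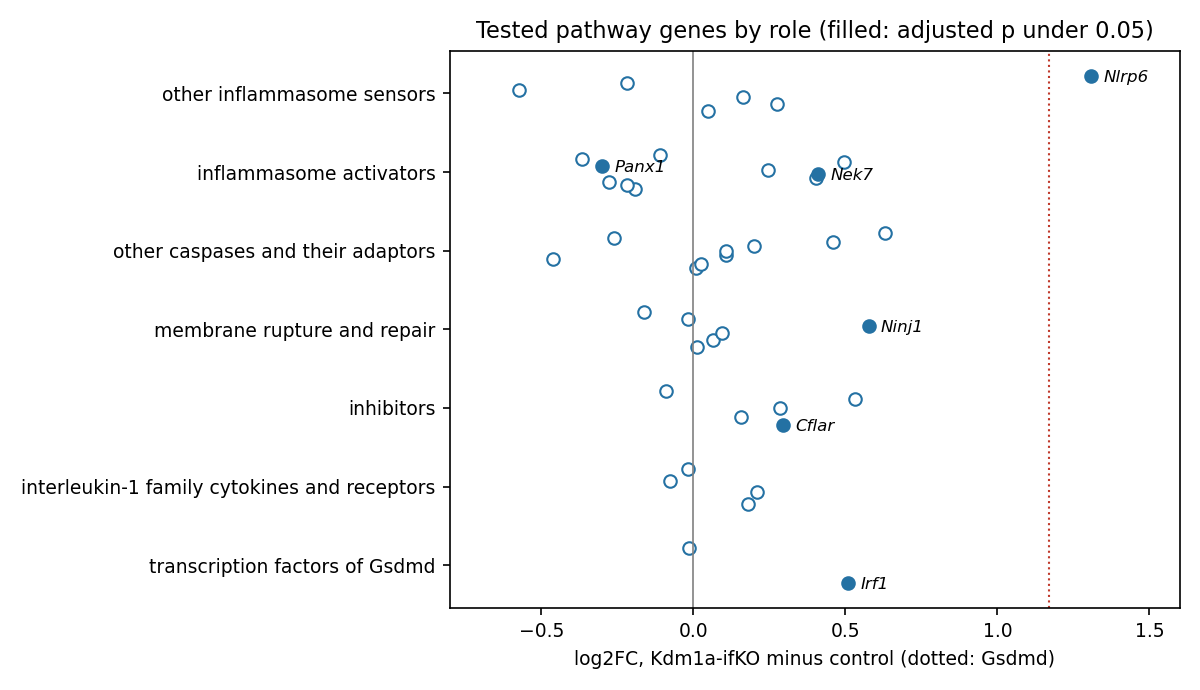
The log2FC (Kdm1a-ifKO minus control) of the 42 tested pathway genes by role, with filled points for an adjusted p under 0.05 and a dotted line at the log2FC of Gsdmd (1.17). Nlrp6 is the 1 gene to the right of the dotted line, and the other points lie between -0.58 and 0.63.

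Because the pathway is best known from microglia, the levels of cell type markers were set beside these genes. The summed TPM of 10 microglia markers ranged from 457 to 484 in controls and from 510 to 636 in Kdm1a-ifKOs, 1.23 times the control mean. Cx3cr1, Csf1r, Siglech and Tmem119 were called higher, which is 4 of 10, where 6.04% of all tested genes were called higher. The log2FC values of the 10 ran from 0.11 to 0.42. Without 1 library the number called was 0 to 4, with 0 without control replicate 1, control replicate 2 or Kdm1a-ifKO replicate 3 and 1 without Kdm1a-ifKO replicate 2. The summed TPM of 8 astrocyte markers was 2310 to 2503 in controls and 2702 to 2973 in Kdm1a-ifKOs. Of the 8, 4 were called higher (Sox9, S100b, Slc1a3 and Aldoc), against the same 6.04% of all tested genes. The number called was 1 without control replicate 2 or Kdm1a-ifKO replicate 3, and 2 without Kdm1a-ifKO replicate 1. The 5 markers of perivascular macrophages summed to between 4.81 and 8.28 TPM in controls and between 4.69 and 16.1 TPM in Kdm1a-ifKOs, with the highest sum in Kdm1a-ifKO replicate 2. The 4 of them that were tested had log2FC between 0.70 and 0.85, and 0 were called by edgeR or DESeq2 or had an unadjusted p under 0.05. Markers of monocytes, neutrophils and lymphocytes were too low to test, and Ly6g had 0 counts in controls. The part of cell composition in these results was not tested.

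To see which genes followed Gsdmd most closely, the profile of log2 CPM over the 6 libraries, centred on its mean, was compared by Euclidean distance. The closest gene outside the lists was Spint2, an inhibitor of serine proteases, at a distance of 0.14. It had 223, 266 and 204 counts in controls and 474, 541 and 466 in Kdm1a-ifKOs, with replicate 2 highest in each group as for Gsdmd. The vesicle release gene Doc2a (0.25), the iodide transporter gene Slc5a5 (0.26), the histamine receptor gene Hrh3 (0.26) and the inhibin subunit gene Inhbb (0.27) followed. Doc2a and Hrh3 overlap Ino80e and Gm17180 on the opposite strand. The closest member of the set was Casp8 at 1.15, and the farthest Casp1 at 2.13. As the genotype difference dominates the profile, the distance describes these 6 libraries and has no test.

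Within 100 kb of the start site of Gsdmd, 7 genes were tested besides it. Naprt, an enzyme of NAD synthesis that starts 32.2 kb downstream, was called higher, with 137, 146 and 135 counts in controls and 177, 215 and 186 in Kdm1a-ifKOs. The groups did not overlap and the log2FC was 0.42 (standard error 0.12, adjusted p = 0.0384), but the call was lost with any 1 of the 6 libraries left out (adjusted p from 0.0577 to 0.129). Zc3h3, the nearest tested gene at 20.4 kb upstream, had a log2FC of -0.12 (95% interval -0.49 to 0.24). Eef1d, Tigd5, Pycrl, Tsta3 and Zfp623 had log2FC between -0.08 and 0.07, with no call. Naprt and Eef1d overlap on the same strand.

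**Figure D4:**
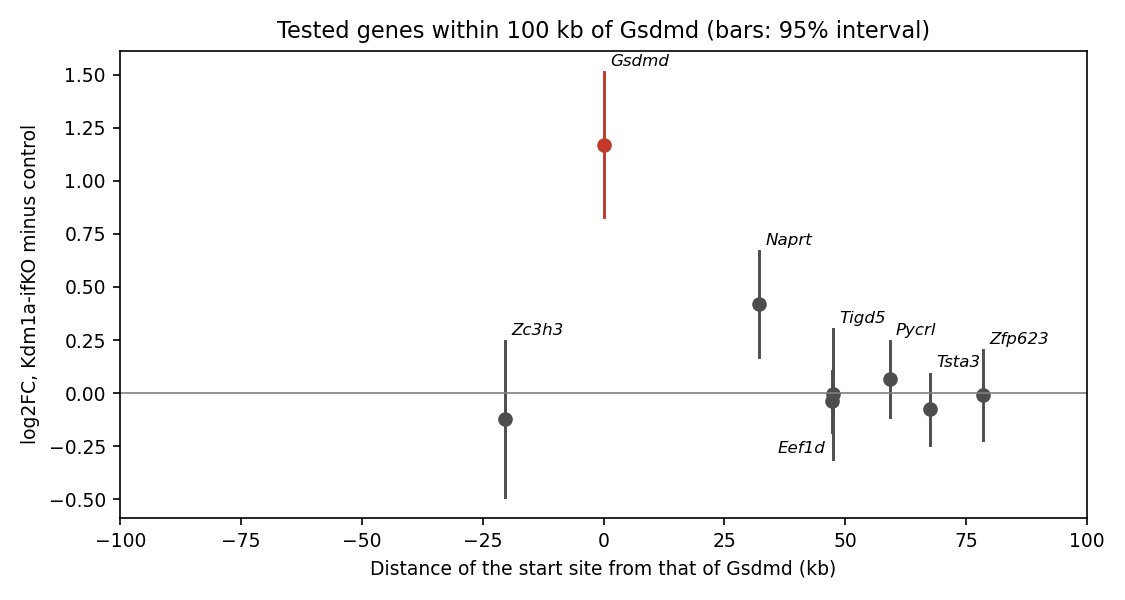
The log2FC (Kdm1a-ifKO minus control) with its 95% interval for tested genes, against the distance of each start site from that of Gsdmd in kb. Gsdmd stands at 1.17, Naprt at 0.42, and the other genes between -0.12 and 0.07.

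The loop of 169 kb around Gsdmd held 2 further tested genes, Zc3h3 and Mafa. Mafa, a transcription factor of pancreatic beta cells that was named after its values were seen, had 12, 11 and 17 counts in controls and 64, 57 and 65 in Kdm1a-ifKOs. Its log2FC was 2.16 (standard error 0.24, adjusted p = 6.6e-05), and the call held with any library left out. Zc3h3, which lies between Mafa and Gsdmd, was not called. Gsdmd and Mafa were both picked with their values known, so their shared rise inside this loop is a description and was not tested. The loop is 1 of 9 that contained Gsdmd and rested on 7 PETs of 1 library.

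RefSeq promoter windows of GRCm38.p6 (250 bases before to 50 after the start site) were found for 8 of the 9 genes, Gsdmd being without an entry. The window of Gsdme had 65.7% G and C and those of the other genes between 36.7% and 49.3%, with a median of 52.7% over 32851 windows. AANNGAAA, a short form of the motif bound by interferon regulatory factors, was searched on both strands and occurred in windows of 6 of the 8 genes (Casp4, Casp8, Il18, Il1b, Nlrp3 and Pycard) and in 23.9% of all windows. Its longer form, GAAA repeated after any 2 bases, which contains it, occurred in 0 of the 8 and in 3.44% of all windows. TATAAA occurred for Il18 and Il1b and in 13.6% of all windows. Casp4 and Nlrp3 have more than 1 window, and a match is a description of these letters only. Of the 6 genes with AANNGAAA, 5 were tested and 0 were called in edgeR or DESeq2, where edgeR called 8.85% of all tested genes. Among the called pathway genes, the window of Cflar held both forms, and those of Irf1, Nek7, Ninj1, Nlrp6 and Panx1 held neither. A link between these motifs and expression was not tested.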

How the data were processed

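Hippocampal RNA of 3 control and 3 Kdm1a-ifKO mice and 1 CTCF ChIA-PET library were used. The authors trimmed single-end poly-A reads with cutadapt 1.18, aligned them to mm10 with HISAT2 2.1.0, kept reads of high mapping quality on nuclear chromosomes and deposited raw counts per Ensembl gene from HTSeq 0.11.1. The authors made the loops with ChIA-PIPE and deposited PET counts, each with 3 or more PETs and with CTCF peaks under its 2 anchors, so depth before loop calling is unknown.

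Counts were tested here with robust quasi-likelihood fits of edgeR 4.0.16 under R 4.3.3, after filterByExpr and TMM, with genotype as the only factor, 95% intervals and Benjamini-Hochberg adjustment over 16799 genes. The procedure was tested on simulated data. TPM used merged exon length from GENCODE M21 (GRCm38), in which 99.1% of genes were found. Alternatives were DESeq2 1.42.0, other normalizations and filters, a replicate block and left-out libraries. An exact permutation test of 3 against 3 cannot give a p under 0.1.

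The 9 genes and all lists were chosen with earlier results of these data known. Named were the 9 genes, Kdm1a, called pathway genes, the 2 other tested genes of each list with the highest TPM, untested pathway genes, called markers and the leading markers, tested genes within 100 kb of Gsdmd, and the 5 closest profiles, and a result for some genes under this rule is not reported here. Same-numbered replicates of the genotypes correlated between -0.15 and -0.03 in their deviations, so the numbers were not taken as pairs. Histone ChIP-seq and 4C samples of the series were not analysed here.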

Additional observations from a re-analysis of the deposited data

How the results depend on the processing

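None of the 7 other tested genes of the set was called in any of the 13 alternatives, and their log2FC kept its sign except where it was near 0 or the counts were few. Without control replicate 3 and Kdm1a-ifKO replicate 2, an alternative added after seeing the data, it was -0.19 for Casp4 and 0.0083 for Il18. With single libraries left out it ranged from -0.10 to 0.32 for Nlrp3 (-0.07 without control replicate 3) and from -0.095 to 0.22 for Pycard (-0.01 without control replicate 2). Nek7, Ninj1 and Irf1 were called in all 13 alternatives. The count of pathway genes called higher was 3 to 5 with a library left out. The count called lower (1) was 0 with upper-quartile normalization, DESeq2, the filter of 10 summed counts, the replicate block or both libraries removed, and 0 to 1 with a library left out. The 1 called neighbour of Gsdmd was 0 with DESeq2, the block, both libraries removed or any library left out. Microglia markers called were 2 without both libraries and 0 to 4 with a library left out, astrocyte markers 1 to 4. By CPM in place of TPM, Gsdme ranked 1, Il18 2, Casp1 3, Pycard 5, Casp8 6, Casp4 8 and Il1b 9, and by the longest transcript Gsdme ranked 2 and Casp1 3. Loops at the 9 genes (7) were 3 at 5 PETs, 2 at 10 PETs, 3 on the gene body and 24 within 25 kb, of which 5 were at Gsdmd. The replicate block lowered calls over all genes from 1014 higher and 473 lower to 797 and 249, and removing Kdm1a-ifKO replicate 3 to 646 and 137. Upper-quartile normalization gave 1213 and 360. Without a filter 1447 and 1090 were called. Low counts limit Casp4, Il1b and Nlrp3.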

Other observations

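The guanylate-binding proteins Gbp2, Gbp3 and Gbp5, interferon-induced GTPases that expose bacterial lipopolysaccharide to Casp4, varied more within a genotype than between genotypes. Gbp2 had 52, 131 and 68 counts in control replicates 1 to 3 and 54, 101 and 72 in the Kdm1a-ifKO replicates. Gbp5 had 45, 140 and 72 counts in controls and 47, 98 and 74 in Kdm1a-ifKOs. Both were highest in replicate 2 of each genotype. Their log2FC were -0.19 and -0.28, and that of Gbp3 -0.22, without a call. Gbp3 had 79, 182 and 90 counts in controls and 89, 110 and 112 in Kdm1a-ifKOs, where replicate 3 was highest. Reads of these genes may be split between close copies of the family. Casp4 also had its highest count of each genotype in replicate 2, with 10 and 14 counts. The next highest were close, with 8 in control replicate 1 and 12 in Kdm1a-ifKO replicate 3. Replicate numbers were not taken as pairs, so this is a description.

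Among neuronal markers, 2 of 7 in the excitatory list were called lower, among them Neurod6 (log2FC -0.36), and 1 of 7 in the interneuron list, Vip (-0.46). Over all tested genes, 2.82% were called lower. Camk2a and Nrgn, the most abundant excitatory markers, had log2FC of 0.05 and -0.12, and Gad1 and Sst of the interneurons -0.09 and 0.07, without a call. Of the oligodendrocyte and endothelial markers 0 were called by edgeR or DESeq2 and 0 had an unadjusted p under 0.05, with log2FC of 0.15 for Mbp, 0.07 for Cldn5 and -0.08 for Ly6c1. The choroid plexus markers Kl and Ttr went apart, with log2FC of 1.28 (called) and -1.49 (not called, 95% interval -3.59 to 0.60).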
